A study of Mus musculus with 4 samples.

Results

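The genes described here are 10 genes of the ATF4 and CHOP stress response in mouse liver: Atf4, Ddit3, Atf3, Atf5, Trib3, Chac1, Asns, Psat1, Phgdh and Sesn2. They were chosen by gene symbol as members of this response, with earlier results of these data known. Each had 1 probe set whose platform annotation gave that symbol alone, so all 10 were found among the 22180 genes of the array. Liver RNA of C57BL/6 mice older than 2 months was measured on 4 Affymetrix arrays, 1 per group. The pools held RNA of 7 wild-type (WT) mice on regular chow, of 7 WT mice after 3 weeks on a diet with 70% fructose, of 4 WT mice after 2 weeks on it, and of 6 Chrebp-null mice after 2 weeks on it. ChREBP, the product of Mlxipl, is a sugar-responsive transcription factor, and the null mice lack it. Males and females entered every pool in proportions that the labels do not give, so sex and group cannot be told apart. With 1 pooled array per group there were no replicates, no test was run and no error can be given. Values are log2 levels after robust multi-array averaging (RMA), and a difference is the log2 level on one array minus that on another.

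The integrated stress response begins when one of the kinases PERK, GCN2, PKR or HRI phosphorylates the translation factor eIF2. Most translation then slows, while the mRNA of the transcription factor ATF4 is translated more, so ATF4 protein can increase without more Atf4 mRNA. ATF4 switches on genes of amino acid supply, further transcription factors such as CHOP (encoded by Ddit3) and ATF3, and genes that limit the response. In liver, amino acid shortage and stress in the endoplasmic reticulum or mitochondria are known triggers. The arrays measured mRNA, and neither eIF2 phosphorylation nor ATF4 protein was measured.

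ATF4 binds with C/EBP partners to a composite site called the C/EBP-ATF response element (CARE). Promoter windows from 250 bases before to 50 after the transcription start were taken from RefSeq (GRCm38.p6), which held 12 windows for the 10 genes. The CARE core TGATGNAA, searched on both strands, was in windows of 4 of the 10 genes, Asns, Atf3, Chac1 and Trib3. It was in windows of 4.51% of the 27025 genes with a window, and in 3.97% of their 32851 windows. The 4 matches are shown because these genes follow different patterns below. Each line is the 30-base window in the direction of the gene, with the match in capitals.
Asns (chr6:7693214-7693243, minus strand, match from -23 to -16): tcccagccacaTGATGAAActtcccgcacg
Atf3 (chr1:191183425-191183454, minus strand, match from -110 to -103): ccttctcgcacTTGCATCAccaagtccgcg
Chac1 (chr2:119351038-119351067, plus strand, match from -193 to -186): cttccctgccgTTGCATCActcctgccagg
Trib3 (chr2:152344028-152344057, minus strand, match from 15 to 22): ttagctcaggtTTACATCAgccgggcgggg
Positions count from the start site, with the first transcribed base as 1. The Asns match reads along the gene. The other 3 lie on the opposite strand, so the lines above show them as the reverse complement of the core.

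The 250 bases upstream of the start are printed for Asns and Atf3, the pair of genes that had a match and stood far apart between the null pool and every WT pool.
Asns (chr6:7693210-7693459, minus strand): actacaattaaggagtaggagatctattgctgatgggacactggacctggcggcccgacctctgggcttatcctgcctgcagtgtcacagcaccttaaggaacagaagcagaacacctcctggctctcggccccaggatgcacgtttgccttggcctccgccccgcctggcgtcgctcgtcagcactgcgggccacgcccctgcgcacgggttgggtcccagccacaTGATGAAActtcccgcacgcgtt
Atf3 (chr1:191183334-191183583, minus strand): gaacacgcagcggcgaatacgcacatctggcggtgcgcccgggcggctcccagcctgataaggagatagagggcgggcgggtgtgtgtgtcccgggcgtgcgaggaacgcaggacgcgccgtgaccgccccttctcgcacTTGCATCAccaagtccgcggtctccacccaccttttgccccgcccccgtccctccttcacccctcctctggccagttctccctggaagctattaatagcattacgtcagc
The cAMP response element TGACGTCA was in none of the windows of the 10 genes and in 1.79% of all windows. A pair of exact E-boxes 5 bases apart, a strict form of the ChREBP response element, was in none of the 32851 windows. No match says only that these letters are not in this stretch.

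Some properties of the arrays bear on every value below. Any pair of arrays correlated at Pearson's r of 0.974 to 0.982 across the 41345 probe sets, and array medians ranged from 3.11 to 3.17. A level was treated as measured where it reached a floor of 3.52, which is the middle value when genes are ranked by their mean. A difference was assessed where the higher of its arrays reached that floor. Genes reaching the floor numbered 10869 on the array of WT mice at 2 weeks, to which the null pool is compared, and 11209 to 11239 on the other 3. Mlxipl, the targeted gene, read 8.09 in the null pool and 9.25, 9.64 and 9.83 in the chow, 3-week and 2-week WT pools, which is the direction of the label. Of 12 hepatocyte markers, 11 had a probe set and all 11 were above the floor, with a log2 summed level from 15.24 to 15.29, so the tissue label was borne out. Summed levels of other cell types ranged over the arrays from 10.73 to 11.24 for Kupffer cells and macrophages, from 10.93 to 11.25 for sinusoidal endothelium, from 10.61 to 10.86 for stellate cells, from 6.14 to 6.74 for cholangiocytes and from 7.08 to 7.34 for lymphocytes and neutrophils. Of 5 cholangiocyte markers with a probe set, 2 were below the floor on every array, Krt19 and Cftr. So were 7 of 12 lymphocyte and neutrophil markers, among them the neutrophil genes S100a8 and S100a9. The summed levels of these lists include such unmeasured levels. In bulk tissue, fewer cells of a type and less RNA per cell cannot be told apart.

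The 10 genes did not move as a block. Ddit3, Atf3 and Asns were at least 2-fold higher in the Chrebp-null pool than in each of the 3 WT pools. Psat1 was so only as read, since its WT levels lay below the floor and the step was at least 1.78-fold with the floor in their place. Atf4 and Atf5 were highest there by less. Trib3 and Chac1 were highest on chow and lower in both WT fructose pools. Sesn2 was low in the 3-week pool alone, and Phgdh varied little.

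**Figure D1:**
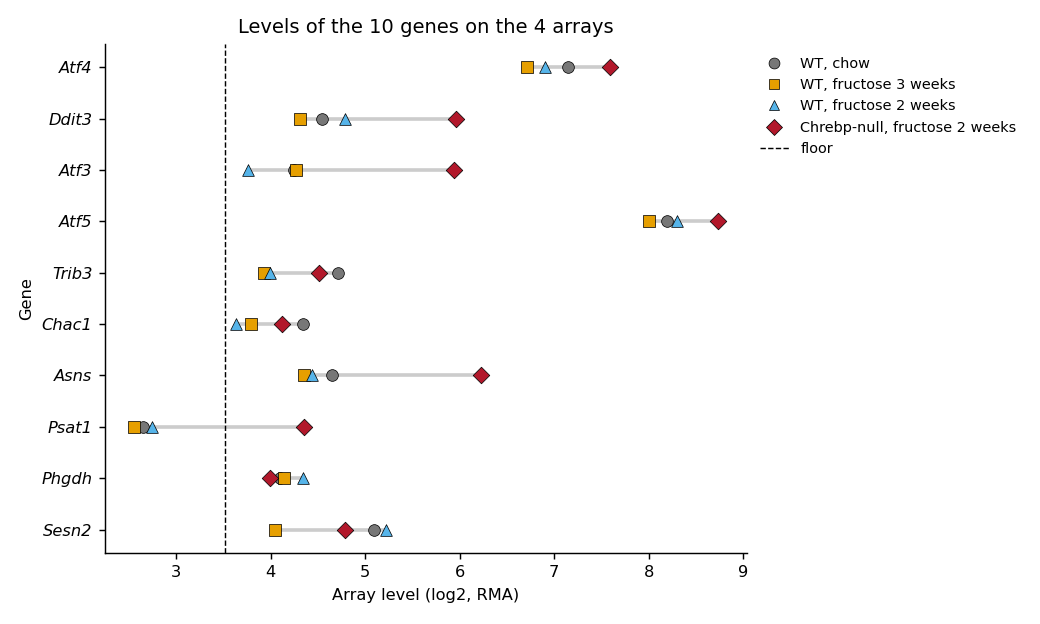
Log2 levels (horizontal axis) of the 10 genes (rows) on the 4 arrays, 1 point per pooled array, with the floor of 3.52 as a dashed line. The null pool (diamonds) lies at least 1.17 to the right of every WT pool for Ddit3, Atf3, Asns and Psat1, and the WT levels of Psat1 lie below the floor.

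The null pool was the highest of the 4 for 6 of the 10 genes. Of 12194 genes above the floor on any array, 37.6% were highest there. A level at least 2-fold above each of the other 3 pools was found, as read, for 4 of the 10 genes and for 0.574% of the 12194 genes. For Psat1, 1 of the 4, the null level alone was measured, so 3 genes hold when low levels are raised to the floor. All 3 of those differences share the null array, and its mice, RNA extraction and hybridisation are shared by every gene.

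Among the transcription factors, Atf4 itself, the factor at the head of the response, read 7.14 on chow, 6.72 after 3 weeks and 6.91 after 2 weeks of fructose in WT, and 7.59 in the null pool. The null pool was thus the highest, by 0.45 over chow and by 0.68 and 0.87 over the WT pools at 2 and 3 weeks, all under 2-fold. The 3 WT pools spanned 0.42, about as much as the step from chow to the null pool.

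Ddit3 encodes CHOP, a C/EBP family factor linked to cell death under prolonged stress. It read 4.54 on chow, 4.31 and 4.79 in the WT pools at 3 and 2 weeks, and 5.96 in the null pool. The WT pools lay within 0.48 of each other and the null pool stood apart above them. Over the 2-week WT pool the difference was 1.17, a ratio of 2.25, which 129 of 11631 assessed genes reached or passed. It was 1.65 over the 3-week pool and 1.42 over chow.

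Atf3, a stress-induced factor of the same bZIP class, showed the largest step of the 10 between the null pool and the 2-week WT pool. Its levels were 4.25 on chow, 4.27 at 3 weeks, 3.75 at 2 weeks and 5.94 in the null pool. The difference was 2.18 over the 2-week pool, a ratio of 4.54 that 18 of 11631 genes reached or passed. Part of that size came from the 2-week pool, the lowest of the WT pools, since the difference was 1.67 over the 3-week pool and 1.69 over chow. Atf3 also belongs to the immediate early genes, which respond within minutes to many stimuli. Of 15 such genes above the floor, Jun was higher in the null pool by 2.12, Myc by 1.86 and Btg2 by 1.07, and Egr1 was lower at -2.40. Their part in the Atf3 difference was not tested.

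Atf5, a relative of ATF4 that is likewise controlled at translation, read 8.19 on chow, 8.003 at 3 weeks, 8.30 at 2 weeks and 8.73 in the null pool. The null pool was higher than the 2-week WT pool by 0.43 and than the 3-week pool by 0.73. These steps are under 2-fold, as for Atf4, and the range within WT was 0.30.

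The 3 genes of amino acid synthesis differed from each other. Asns, asparagine synthetase, is a classical ATF4 target. It read 4.65 on chow, 4.35 at 3 weeks, 4.44 at 2 weeks and 6.22 in the null pool. The WT levels lay within 0.30 of each other, below the median WT range of 0.36 over all genes above the floor. The null pool was higher by 1.78 over the 2-week pool, a ratio of 3.43, by 1.87 over the 3-week pool and by 1.57 over chow. The first of these was reached or passed by 36 of 11631 genes.

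Psat1 and Phgdh encode enzymes of serine synthesis. Psat1, phosphoserine aminotransferase, read 2.64 on chow, 2.56 at 3 weeks, 2.75 at 2 weeks and 4.35 in the null pool. Its 3 WT levels lie below the floor, where values have no order, and only the null level was measured. As read, the null pool was higher by 1.61 over the 2-week pool. Taking the floor in place of the WT level, the difference is at least 0.83, a ratio of 1.78, which is under 2-fold. Phgdh, the dehydrogenase that starts the pathway, read 4.10 on chow, 4.14 at 3 weeks, 4.34 at 2 weeks and 3.99 in the null pool. It was lowest in the null pool, by 0.35 under the 2-week pool (a difference of -0.35), with a range of 0.35 over all arrays. Psph, the last enzyme of the pathway, stood at 0.37 in the same comparison.

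Trib3 and Chac1, which act to limit or follow the response, shared a pattern of their own. Trib3 encodes a pseudokinase that binds ATF4 and CHOP and dampens them. It read 4.71 on chow, 3.93 at 3 weeks, 4.00 at 2 weeks and 4.51 in the null pool. Both WT fructose pools lay below chow, at -0.78 and -0.71, and the null pool lay between, at 0.52 over the 2-week pool and -0.19 against chow. Chac1, an enzyme that degrades glutathione, read 4.34, 3.79, 3.64 and 4.12 in the same order of pools. Its differences from chow were -0.55 at 3 weeks and -0.71 at 2 weeks, and the null pool stood at 0.49 over the 2-week pool. None of these steps reached 2-fold, and both differences from chow share the chow array. Chac1 and Trib3 each hold a CARE core in the window printed above, as do Atf3 and Asns. Ddit3 and Psat1 had no match in the windows searched, which leaves sites farther upstream or with other letters unread.

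Sesn2 encodes sestrin 2, a stress-induced regulator of the growth kinase mTORC1 that also responds to p53 and NRF2. It read 5.09 on chow, 4.04 at 3 weeks, 5.22 at 2 weeks and 4.78 in the null pool. The 3-week pool stood apart below the other 3. The difference was -1.05 from chow and -1.18 from the 2-week WT pool, while the 2-week pool stood at 0.13 over chow. Against the WT pools the null pool stood at -0.44 at 2 weeks and 0.74 at 3 weeks, so the sign depended on which WT pool was used.

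The fructose comparison (3-week WT pool minus chow) asks what fructose feeding does in WT liver. Of the 9 genes assessed, Psat1 being below the floor on both arrays, 1 was at least 2-fold lower and 0 were at least 2-fold higher. Over all 11717 genes assessed, 1.16% were at least 2-fold lower and 0.64% at least 2-fold higher. The gene past the threshold was Sesn2, and with the trend of the difference with level removed it stood at -0.98, under 2-fold. The other 8 lay between -0.78 for Trib3 and 0.04 for Phgdh, and 7 of the 9 were below 0. The median of the 9 was -0.30, where the median over all genes was -0.05 and 43.5% of genes were above 0. With the 2-week WT pool minus chow, 0 of 9 passed 2-fold in either direction, against 0.783% of genes higher and 1.41% lower. The median was then -0.20, with 4 of 9 above 0. Trib3 (-0.78 and -0.71) and Chac1 (-0.55 and -0.71) had similar values in both, with the chow array in common.

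The Chrebp-null comparison (null minus WT, both after 2 weeks of fructose) asks what the loss of Chrebp does under fructose. All 10 genes were assessed. Atf3, Asns, Psat1 and Ddit3 were at least 2-fold higher, 4 of 10, and 0 were at least 2-fold lower. The shares over 11631 genes were 2.03% higher and 1.43% lower. The median was 0.60, against 0.10 over all genes, and 8 of 10 lay above 0, against 63.4% of genes. Psat1, among those above 0, reached the floor in the null pool alone and could only lie above 0. When levels under the floor were raised to it, 3 passed 2-fold, Psat1 being the gene lost. Sesn2 at -0.44 and Phgdh at -0.35 were the genes below 0. The whole list of 12 Kupffer cell and macrophage markers had a median of -0.04 in this comparison, with 1 of 12 at least 2-fold higher, the scavenger receptor gene Marco at 2.66. Of 9 sinusoidal endothelial markers, 2 were above 0 and 1 was at least 2-fold lower, with a median of -0.20. Of 9 stellate cell and fibroblast markers, 4 were above 0, with a median of -0.03. The part of these cell types in these results was not tested.

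**Figure D2:**
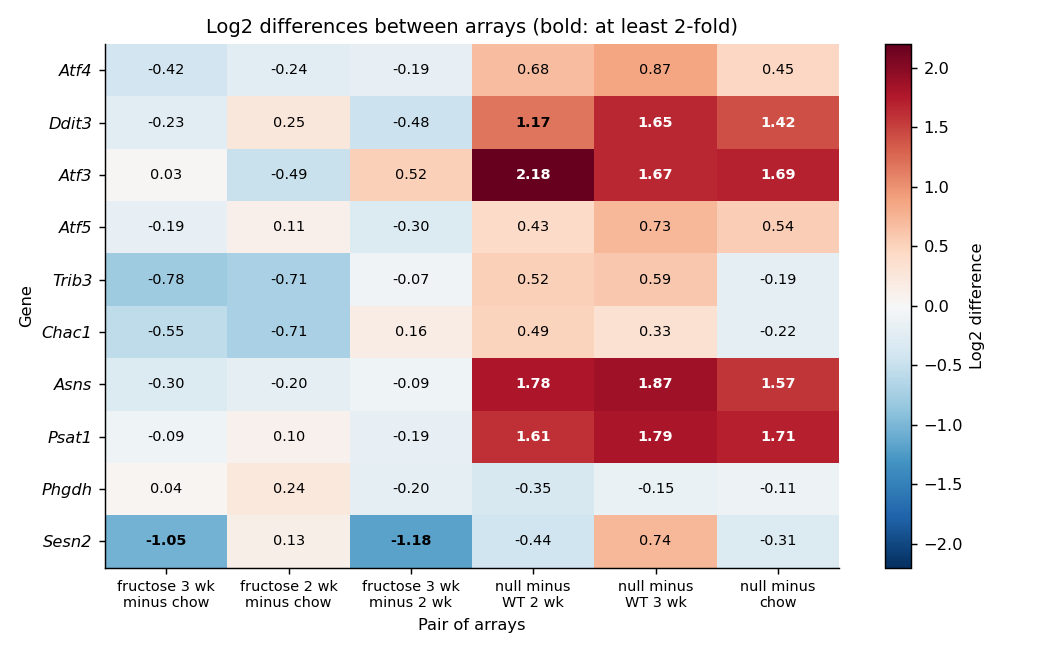
Log2 differences of the 10 genes (rows) for each of the 6 pairs of arrays (columns), coloured from blue (lower) to red (higher), with values of at least 2-fold in bold. Values in a row share arrays, and every value of Psat1 involves at least 1 level below the floor. The null pool minus each WT pool gave values between 1.17 and 2.18 for Ddit3, Atf3, Asns and, as read, Psat1, and the 2 values past 2-fold on the left are those of Sesn2.

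The remaining pairs of arrays are given as values, because each shares an array with the comparisons above. For the null pool minus the 3-week WT pool, 4 of 10 genes passed 2-fold upward as read, 3 with low levels at the floor, and 0 downward, with 3.38% of genes higher and 1.95% lower as read. These were Asns at 1.87, Atf3 at 1.67, Ddit3 at 1.65 and, as read, Psat1, which is at least 0.83 at the floor. Against chow the counts were again 4 of 10 as read, 3 with low levels at the floor and 0 lower, with shares of 1.66% and 1.43% over all genes as read. Atf3 stood there at 1.69, Asns at 1.57, Ddit3 at 1.42 and Psat1 at 0.83 or more. Markers of some other cell types differed in these pairs as well. Of 12 Kupffer cell and macrophage markers, 11 were above 0 in each, with medians of 0.39 against 3 weeks and 0.26 against chow, and 2 were at least 2-fold higher, Marco (3.25 and 2.37) and Cd14 (1.53 and 1.28). Of 9 stellate cell and fibroblast markers, 9 were above 0 against 3 weeks and 7 against chow, with medians of 0.24 and 0.20. Of 9 sinusoidal endothelial markers, 1 was above 0 against 3 weeks and 6 against chow, with medians of -0.25 and 0.05. Over all genes, 62.1% and 57.4% were above 0 in these pairs. Their part in the values of the 10 genes was not tested. Between the WT fructose pools, 3 weeks minus 2 weeks, 1 of 9 was at least 2-fold lower, Sesn2, and 0 higher. The background of that pair was 1.1% lower and 1.27% higher. It differs in mice and in weeks on the diet and is no replicate, yet apart from Sesn2 none of the assessed genes differed by more than 0.52 in it.

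The wider pathway was read from lists of related genes. For supply of amino acids and the downstream response, 5 lists held 82 genes beside the 10, of which 70 had a probe set and 65 were assessed in the Chrebp-null comparison. There 9 of 65 passed 2-fold upward as read, 8 with low levels raised to the floor, and 0 downward, beside the 2.03% and 1.43% of all genes given above. The median was 0.37, or 0.36 with low levels raised to the floor, against 0.10 as read over all genes. Above 0 lay 54 of 65, against 63.4% of all genes. Genes that reached the floor in the null pool but not in the 2-week WT pool could only lie above 0. Slc7a11, Slc1a5 and Mthfd2 are among them. In the fructose comparison 2 of 61 were higher and 1 lower, beside 0.64% and 1.16% of all genes. The median there was -0.12 against -0.05.

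Amino acid transporters made up most of those higher in the null pool, with 5 of 10 at least 2-fold higher, 0 lower and a median of 0.88. Over all genes 2.03% were higher and 1.43% lower, with a median of 0.10. Slc7a11, the cystine and glutamate exchanger, stood at 3.54, and at least 2.69 with the floor in place of the WT level. Its other probe set read between 1.74 and 2.00 on the 4 arrays, below the floor. Slc1a4 and Slc1a5, neutral amino acid transporters, stood at 2.32 and 2.19. The Slc1a5 value is at least 1.16 with the WT level at the floor, and its other probe set stayed below the floor on every array. Slc3a2, the heavy chain that pairs with Slc7a11 and other light chains, stood at 1.11. Slc43a1, a carrier of large neutral amino acids, stood at 1.48, but at -0.59 against the 3-week pool, since its 2-week WT level of 4.50 was low beside 6.19 on chow and 6.57 at 3 weeks. Slc38a2 was the 1 transporter of the 10 below 0, at -0.57.

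In the list of serine, glycine and one-carbon genes, 1 of 9 was at least 2-fold higher, beside 2.03% of all genes. The median was 0.19, against 0.10 over all genes. Mthfd2, a mitochondrial folate enzyme, was the gene past 2-fold, at 1.19 as read and at least 0.58 with the WT level at the floor. Mthfd1l, the next enzyme of that route, stood at 0.84 and Gldc at 0.54. In the list of proline, glutamine and transsulfuration genes, Cth, which makes cysteine, was the 1 gene of 6 past 2-fold, at 1.16. The share over all genes was the same 2.03%. Cth read 10.75 on chow, 9.74 and 9.77 in the WT pools at 3 and 2 weeks, and 10.94 in the null pool. It was therefore lower in both WT fructose pools than on chow, by -1.01 and -0.98, an order of pools like that of Trib3 except that the null pool was highest.

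The cytosolic aminoacyl-tRNA synthetases, many of which are ATF4 targets, gave small steps in 1 direction. Of 18 measured, 17 were above 0 in the Chrebp-null comparison, against 63.4% of all genes, and 0 passed 2-fold. Their median was 0.28, against 0.10 over all genes. Hars at 0.65, Gars at 0.62 and Lars at 0.55 were the farthest up, and Tars stood at -0.26. With the trend with level removed, 16 of 18 were above 0 and the median was 0.18, against 0.004 for all genes. On fructose, 7 of 18 were above 0 (3-week WT pool minus chow), against 43.5% of all genes, with a median of -0.10.

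Of 22 other response genes, 2 were at least 2-fold higher in the null pool, 0 were lower, and the median was 0.50. The shares over all genes were 2.03% higher and 1.43% lower, with a median of 0.10. Fgf21, a hormone that liver secretes under nutrient stress, read 2.92 on chow, 3.96 at 3 weeks, 4.13 at 2 weeks and 7.63 in the null pool, a difference of 3.50 over the 2-week WT pool. Nupr1, a stress-induced chromatin protein, stood at 1.57. In the fructose comparison Cdkn1a, the cell cycle inhibitor p21, stood at 1.10 and Fgf21 at 1.04, or 0.44 with the chow level of Fgf21 set at the floor. Of the genes tied to cell death by CHOP, Tnfrsf10b stood at 0.83 as read and 0.28 with the floor, Bcl2l11 at -0.19, and Bbc3 was below the floor in both pools.

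**Figure D3:**
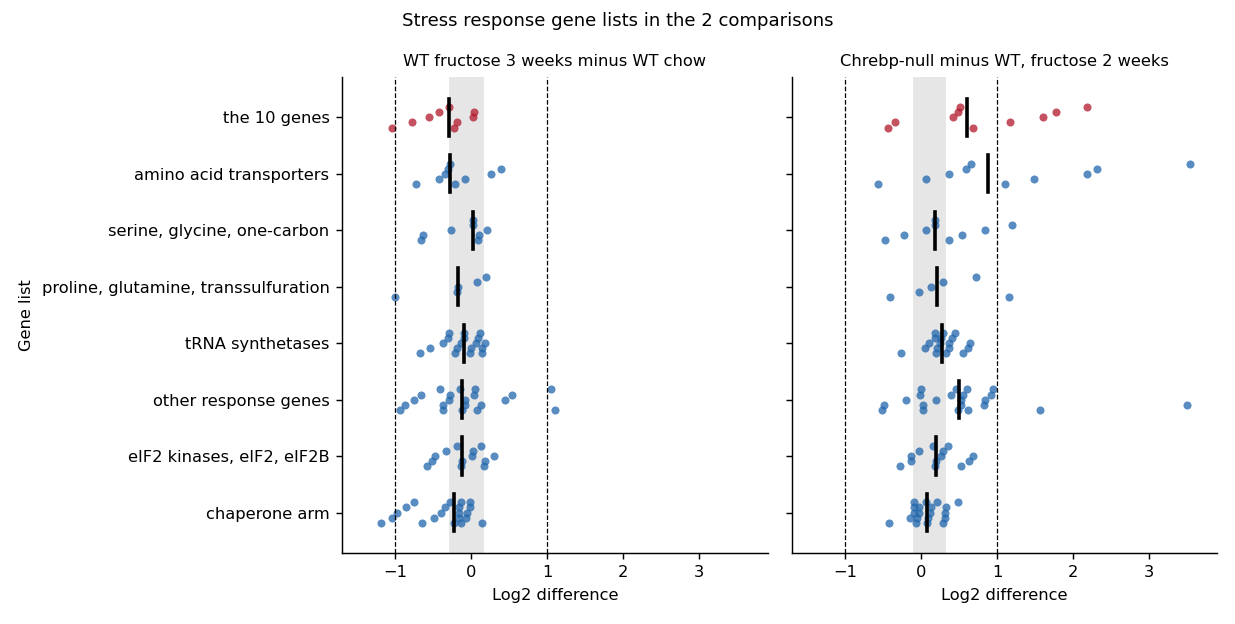
Log2 differences (horizontal axis) of assessed genes in 8 lists, 1 point per gene, for the fructose comparison (left) and the Chrebp-null comparison (right). Black bars are list medians, the grey band spans the 25th to 75th percentile of all genes (from -0.28 to 0.16 and from -0.10 to 0.31), and dashed lines mark 2-fold. On the right the medians of the 10 genes (0.60), the transporters (0.88) and the other response genes (0.50) lie above the band, and that of the chaperone arm (0.07) lies within it.

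Upstream of ATF4 the mRNA levels differed less. Of 13 genes for eIF2 kinases, eIF2 and eIF2B subunits and phosphatase subunits, 0 passed 2-fold in either comparison. Their median was 0.20 in the Chrebp-null comparison and -0.12 in the fructose comparison. Eif2ak3, which encodes PERK, stood at -0.58 in the fructose comparison and 0.16 in the Chrebp-null comparison, and Eif2ak4, which encodes GCN2, at 0.12 and 0.36. Farthest up in the null pool were the eIF2B subunits Eif2b4 at 0.68 and Eif2b3 at 0.63. Ppp1r15a, the stress-induced phosphatase subunit that ends the response, read 4.24 on chow, 3.77 at 3 weeks, 4.13 at 2 weeks and 4.00 in the null pool, and was not higher in the null pool than in the 2-week pool. These are RNA levels, and kinase activity was not measured.

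Partners of ATF4 and CHOP among the bZIP factors went apart. Of 12 assessed in the Chrebp-null comparison, 1 was at least 2-fold higher, Jun, beside 2.03% of all genes. The median was 0.03, below that of all genes. The sign of that median turned to -0.02 when the trend with level was removed. Cebpa and Cebpb stood at -0.67 and -0.33 and Cebpg, a common partner of ATF4, at 0.09. Jund stood at -1.23 in the fructose comparison, the 1 of 11 past 2-fold, and its dimmer probe set at 0.10. Over all genes 1.16% were at least 2-fold lower there.

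In the other branch of the endoplasmic reticulum stress response, ATF6 and XBP1 raise chaperones. It did not have the values of the ATF4 branch in the Chrebp-null comparison. There 0 of 20 of its genes passed 2-fold and the median was 0.07, below the 0.10 of all genes. Dnajb9 at 0.49, Sec24d at 0.33 and Hspa5, the chaperone BiP, at 0.32 were among the highest. In the fructose comparison 2 of 21 were at least 2-fold lower, Creld2 at -1.19 and Sdf2l1 at -1.04, and 1 of 21 was above 0. The median of this branch was then -0.22, beside -0.30 for the assessed genes of the 10 and -0.05 for all genes. Over all genes 1.16% were at least 2-fold lower and 43.5% were above 0. For mitochondrial chaperones and proteases the median of the Chrebp-null comparison was 0.15, with 0 of 7 past 2-fold. Among 5 relatives of the 10 genes, Trib1, Trib2, Chac2, Sesn1 and Sesn3, 0 passed 2-fold in the Chrebp-null comparison, with values from -0.55 for Trib2 to 0.33 for Trib1.

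**Figure D4:**
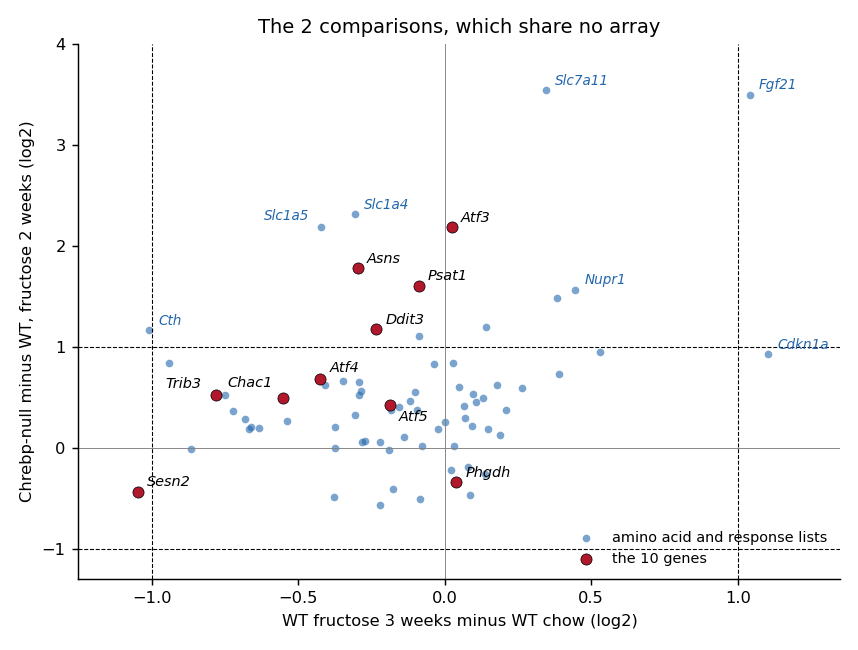
The fructose comparison (horizontal axis) against the Chrebp-null comparison (vertical axis), both as log2 differences, for the 10 genes (red) and the genes of the 5 amino acid and response lists above the floor in the Chrebp-null comparison (blue). The comparisons share no array, dashed lines mark 2-fold, and some values on the horizontal axis, such as those of Psat1 and Slc7a11, are between levels below the floor. Atf3, Asns, Psat1 and Ddit3 lie above the upper line and between -0.30 (Asns) and 0.03 (Atf3) on the horizontal axis. Sesn2 lies left of the left line, and Cth lies past both.

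Genes most like Asns and Atf3, which had wide ranges and levels above the floor on every array, were found by the Euclidean distance between levels centred on each gene's mean over the 4 arrays, among 12193 other genes. For Asns the closest were Tmprss2 (distance 0.15), Dusp8 (0.17), Maoa and Tnfrsf12a (both 0.20) and Psat1 (0.22), the last resting on WT levels below the floor. For Atf3 they were Nudt18 (0.25), Hells (0.30), the transporter gene Slc1a4 (0.31), Tmprss2 (0.39) and Mcm2 (0.40). Dusp8 and Hells were below the floor in both WT fructose pools and Mcm2 in the 2-week WT pool. Their distances therefore rest partly on unmeasured levels. Within the 10 genes the closest pairs were Trib3 with Chac1 (0.21) and Atf4 with Atf5 (0.27), leaving Psat1 aside. With 4 arrays a distance mostly reflects how far the null array stands out, and it describes these arrays only.

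The CARE core was also tallied over genes other than the 10. Of 273 other genes with the core that were assessed in the Chrebp-null comparison, 2.93% were at least 2-fold higher and 1.10% lower, with a median of 0.08. Of all 9168 other genes with a window the shares were 1.99% and 1.04%, with a median of 0.10. In the fructose comparison 0.370% of 270 genes with the core were higher and 0 were lower, against 0.554% and 1.11% of 9213 genes. This tally was added after the values of the 10 genes were seen, and the windows hold the start-site region only.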

How the data were processed

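Per the labels' protocols, total RNA of several livers was combined in each group and hybridised to 1 array. The deposited values are log2 levels that the authors made with affy and RMA, per the submitters' processing notes. Software versions and any joint normalization of the 4 arrays: not given in the sources used here. RMA tends to compress differences of dim genes. Values were used as deposited. Of 41345 probe sets, 23521 had 1 gene symbol, 1814 several and 16010 none in the platform annotation. Each of 22180 genes was read from its brightest probe set by the mean of the 4 arrays. Differences were counted at 2-fold where the higher array reached the floor (50th percentile of gene means, log2 3.52). Arrays hold no read depth, and their number limits precision.

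The 10 genes, the lists and the alternatives were chosen with earlier results of these data known. Named are the 10 genes, Mlxipl, genes at least 2-fold apart or up to 3 farthest apart in each list, and the 5 nearest genes for Asns and Atf3. Psat1 also fell under the rule for nearest genes, but these are not given, since its WT levels lie below the floor. Outside that rule, Krt19, Cftr, S100a8, S100a9, Cebpb, Hspa5, Psph, Bbc3, Bcl2l11, Tnfrsf10b, Slc38a2, Cebpg, Eif2ak4, Ppp1r15a, Gldc and Tars were picked after their values were seen. Alternatives were other floors, thresholds, scalings, probe set rules and WT arrays. The counting was tested on simulated data, with large changes and little noise in genes well above the floor. No change was simulated at levels as dim as those of most of the 10 genes. No blood marker of the list had a probe set with 1 symbol. Python 3.11.15, numpy 2.4.6, pandas 2.3.3, statsmodels 0.14.6 (lowess, fraction 0.3) and matplotlib 3.10.9 were used.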

Additional observations from a re-analysis of the deposited data

How the results depend on the processing

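In the Chrebp-null comparison the count of the 10 genes at least 2-fold higher was 4. It was 3 under a floor at the 75th percentile, where fewer of the 10 were assessed, and 3 with low levels set at the floor. The other 2-fold settings gave 4, and a 1.5-fold threshold gave 5. The count of related genes higher there, 9, became 21 at a 1.5-fold threshold and was between 7 and 13 otherwise. In the fructose comparison the single gene of the 10 at least 2-fold lower, Sesn2, was not counted (0) with the floor at the 75th percentile, with the trend with level removed, with the 2-week WT array or with the mean of both WT fructose arrays, and 2 genes were counted at 1.5-fold. With the 2-week array the Sesn2 difference turned to 0.13; the cause was not tested. Related genes higher on fructose, 2, became 0 under the higher floor, 1 with levels set at the floor and 3 with the 2-week WT array. Those lower, 1, became 0 with the trend removed or with the mean of both arrays, 2 with the 2-week array and 9 at 1.5-fold. On the plus strand alone, 1 of the 4 genes held the CARE core. Of 20 differences of the 10 genes, the signs that turned under a scaling were those of Atf3 (0.03) and Phgdh (0.04) in the fructose comparison, at -0.02 and -0.00027 with arrays centred on their medians. No paired analysis was possible because each group has 1 array. Signal near the floor limits Psat1 most.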
